A study of Sus scrofa with 6 samples.

Results

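Swine MHC class II genes and the co-stimulatory ligand gene CD86 were followed over 6 arrays of porcine marrow stromal cultures. The genes are SLA-DRA, SLA-DQA1, SLA-DQB1, SLA-DOB and CD86, 5 of the 10874 genes that the arrays measured under a single usable symbol. They were chosen by symbol with earlier results of these data known: the class II genes were selected on their differences between the labelled sites, and CD86 on how its levels on the arrays compare with theirs. Site differences of these 5 genes, and the setting of CD86 against class II, are therefore given as a description, with no test. Each of the 5 had 1 probe set with its symbol alone, so the rule of keeping the probe set with the highest mean had nothing to choose between.

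The cultures were primary mesenchymal stem cells of female American Yorkshire pigs aged 4 months, harvested at passage 0 and 80% confluence. They fall into 2 groups of 3, grown from marrow of the mandibular symphysis, the front midline of the lower jaw, or from marrow of the tibia, with no treatment named for either. The design text gives 3 pigs for both sites, and no label ties a replicate number to a pig, so the arrays are not fully independent. Per the labels' protocols the whole marrow aspirate was plated on plastic, and no step that sorts out leukocytes is named.

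MHC class II molecules are pairs of an alpha and a beta chain that carry peptides from endosomes to the cell surface, where CD4 T cells read them. Macrophages, dendritic cells and B cells carry them without induction, and interferon gamma can induce them in stromal cells through the transactivator CIITA. CD86 is a surface ligand of the B7 family that binds CD28 and CTLA4 on T cells, and antigen-presenting cells usually display it beside class II.

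The cultures carried stromal genes throughout, while some arrays went against their site labels. COL1A1, COL1A2 and FN1, abundant matrix genes of stromal cells, had levels between 13.19 and 13.61 on all 6 arrays, on a log2 scale where array medians lay between 5.63 and 5.71. HOXA7, a positional gene of the trunk and limbs, measured 8.40 on the array labelled mandibular 2, beside 8.01 and 7.92 on tibial 1 and tibial 2. It measured 5.89 on the array labelled tibial 3, beside 5.26 and 5.23 on mandibular 1 and mandibular 3. Results are therefore given also without mandibular 2 and tibial 3. The deposited values carry no detection call, and a level near the lower quartile of an array (3.86 to 3.94) cannot be told from background.

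Of the 5 genes, SLA-DRA and SLA-DQA1 had the widest spread. SLA-DRA, the alpha chain of the DR molecule, measured 3.97, 8.17 and 4.71 on mandibular 1, 2 and 3, and 9.56, 10.37 and 6.64 on tibial 1, 2 and 3. The sites overlapped, because mandibular 2 lay above tibial 3 by 1.53. SLA-DRA spanned 6.40 log2 units from mandibular 1 to tibial 2, a lower bound, since its level on mandibular 1 lay next to the lower quartile. Its position moved from above 25.7% of the probe sets of its array on mandibular 1 to above 96.7% on tibial 2.

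SLA-DQA1, the alpha chain of the DQ molecule, had levels of 4.44, 6.69 and 4.48 on the mandibular arrays and 8.51, 9.17 and 5.87 on the tibial arrays, in the order of their numbers. The order of the 6 arrays was that of SLA-DRA, from tibial 2 through tibial 1, mandibular 2, tibial 3 and mandibular 3 down to mandibular 1. Mandibular 1 and 3 were nearly level, at 0.04 log2 units apart, and the range over all arrays was 4.73.

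Among the beta chain members, SLA-DQB1 was arranged in much the same way at lower amplitude. SLA-DOB differed in having mandibular 2 below both mandibular 3 and tibial 3. SLA-DQB1, the partner of SLA-DQA1, measured 4.85, 6.03 and 4.31 on the mandibular arrays and 7.03, 7.95 and 5.61 on the tibial arrays. Mandibular 2 was again above tibial 3, by 0.42, so the sites overlapped here too. SLA-DOB encodes the beta chain of DO, an endosomal modulator of peptide loading that does not itself present peptide. Its level was 2.73, 3.13 and 3.30 on the mandibular arrays and 3.75, 4.28 and 3.46 on the tibial arrays. Of the 5 genes only SLA-DOB had no overlap between sites, with 0.16 between mandibular 3 and tibial 3. No overlap was found for 6.92% of all probe sets, and for 3.57% with the tibial arrays higher. That contrast was in view when the genes were chosen, so nothing is read from this count. SLA-DOB levels lay at or below the lower quartile on 5 of the 6 arrays, at the 10.4 to 30.5 percentile of their arrays, where background cannot be told apart.

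**Figure D1:**
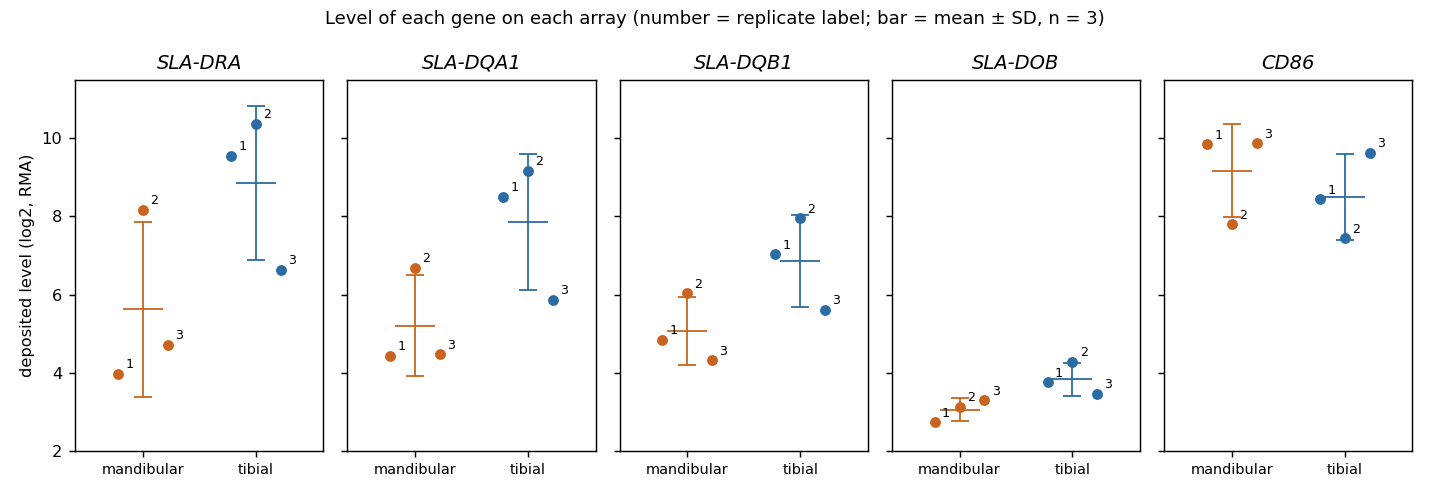
Deposited log2 level (vertical axis) of each of the 5 genes on each array, with points numbered by replicate label and bars for mean ± SD over 3 arrays of a site. Mandibular 2 stands high and tibial 3 low within their sites for SLA-DRA, SLA-DQA1 and SLA-DQB1, and the reverse is seen for CD86.

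By labelled site, the mean class II levels were higher in tibial cultures, with a wide spread inside each site. The mean of SLA-DRA was 5.62 ± 2.24 (SD, n = 3) over the mandibular arrays and 8.86 ± 1.96 (SD, n = 3) over the tibial ones, which is -3.24 (SE 1.34) as mandibular minus tibial. SLA-DQA1 averaged 5.20 ± 1.29 (SD, n = 3) against 7.85 ± 1.74 (SD, n = 3), and thus differed by -2.65 (SE 0.98). SLA-DQB1 averaged 5.06 ± 0.88 (SD, n = 3) against 6.86 ± 1.18 (SD, n = 3), or -1.80 (SE 0.67). The low levels of SLA-DOB averaged 3.05 ± 0.30 (SD, n = 3) against 3.83 ± 0.42 (SD, n = 3), or -0.78 (SE 0.25). For SLA-DRA, SLA-DQA1 and SLA-DQB1 the range within the tibial arrays alone, 3.73, 3.30 and 2.34, exceeded the difference between the sites. Across all 27558 probe sets the site fit in limma called 0 at an adjusted p under 0.05, that is 0%, and 836, or 3.03%, at an unadjusted p under 0.05.

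CD86 did not follow the class II genes. Its level was 9.85, 7.80 and 9.87 on mandibular 1, 2 and 3, and 8.44, 7.44 and 9.64 on tibial 1, 2 and 3. High levels were thus found on mandibular 1, mandibular 3 and tibial 3, within 0.23 log2 units of one another, and the nearest lower array, tibial 1, was 1.20 below them. CD86 averaged 9.18 ± 1.19 (SD, n = 3) over the mandibular arrays against 8.50 ± 1.10 (SD, n = 3) over the tibial ones, or 0.67 (SE 0.73) as mandibular minus tibial, less than the SD of either site. CD86 was above 73.7% of the probe sets on the array where it was lowest and above 95.0% on mandibular 1, so its signal was well up in the distribution on every array. These levels rest on 1 probe set. Its probe sequences were not available, so whether it measures CD86 alone was not checked.

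Set against its own mean over the 6 arrays, CD86 lay on the other side of its mean from SLA-DRA, SLA-DQA1 and SLA-DQB1 on 6 of 6 arrays. On tibial 2, where SLA-DRA stood 3.13 above its mean, CD86 stood at -1.40. On mandibular 1, where SLA-DRA stood at -3.27, CD86 stood 1.01 above. Mandibular 2 had CD86 at -1.04 and SLA-DRA at 0.94, and tibial 3 had CD86 at 0.80 and SLA-DRA at -0.60. SLA-DOB was opposite to CD86 on 4 of 6 arrays and on the same side on mandibular 2 and tibial 3, with deviations of -0.31 and 0.02. The arrays were not in exactly reversed order, since tibial 1 was above mandibular 2 both in CD86, at 8.44 and 7.80, and in each of the 4 class II genes.

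**Figure D2:**
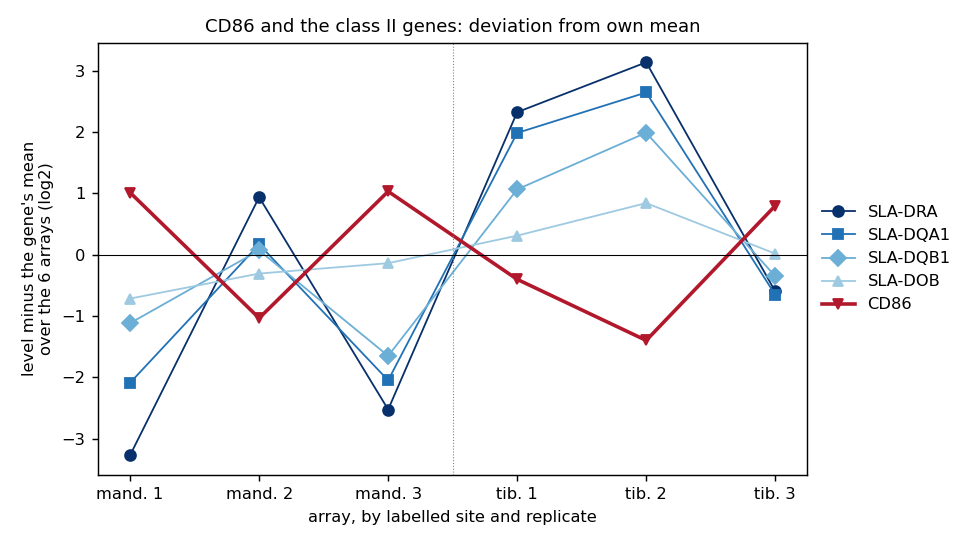
Level of each gene minus its own mean over the 6 arrays (log2, vertical axis) on each array (horizontal axis), with class II genes in blue and CD86 in red. CD86 is below its mean on mandibular 2, tibial 1 and tibial 2, where SLA-DRA, SLA-DQA1 and SLA-DQB1 are above theirs.

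As a measure of likeness, Pearson's r over the 6 arrays was 0.98 between SLA-DRA and SLA-DQA1, 0.98 between SLA-DQA1 and SLA-DQB1 and 0.96 between SLA-DRA and SLA-DQB1. SLA-DOB had r between 0.83 and 0.85 with these genes. With CD86, r was -0.90 for SLA-DRA, -0.87 for SLA-DQA1, -0.87 for SLA-DQB1 and -0.63 for SLA-DOB. These values describe 6 arrays that share pigs and normalization, and they carry no test.

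Leaving arrays out changed the size of the site differences and not their sign. Without mandibular 2, SLA-DRA differed by -4.52 and CD86 by 1.36, and without tibial 3 by -4.35 and 1.24. Without tibial 2, CD86 differed by only 0.14 (SE 0.74) and SLA-DQB1 by -1.26 (SE 0.63). Without mandibular 1 and without mandibular 3, CD86 differed by 0.33 and 0.32. With mandibular 2 and tibial 3 both left out, an alternative chosen after the data were seen, the differences were -5.62 (SE 0.37) for SLA-DRA, -4.38 (SE 0.26) for SLA-DQA1 and -2.91 (SE 0.36) for SLA-DQB1. SLA-DOB then differed by -1.003 (SE 0.29) and CD86 by 1.92 (SE 0.34). That fit called 195 of all probe sets, 0.708%, and removes arrays by their expression, so it is no independent test of site.

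**Figure D3:**
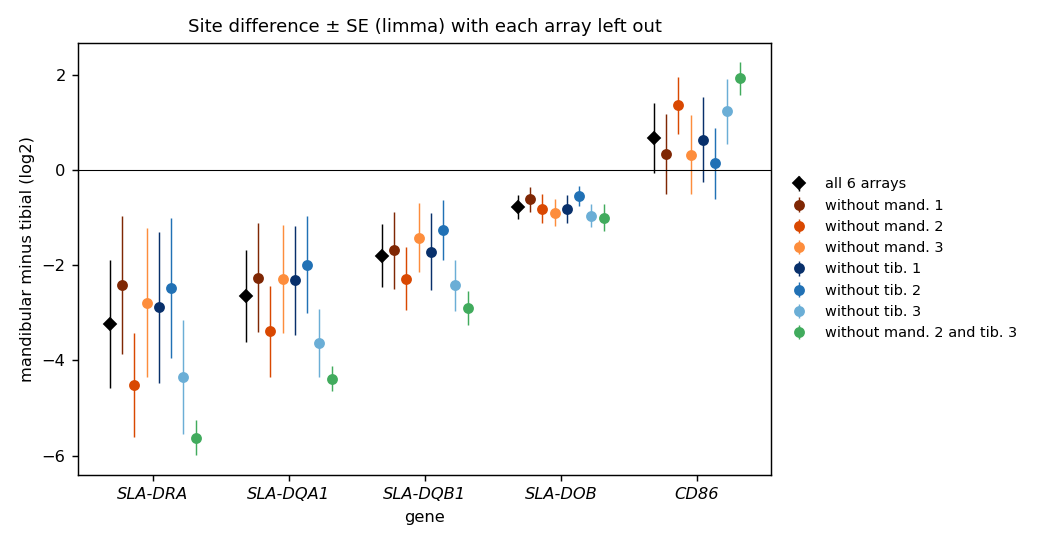
Mandibular minus tibial difference (log2, vertical axis) of the 5 genes, with all 6 arrays (black diamonds), with each array left out in turn, and with mandibular 2 and tibial 3 left out together (green). Bars are the SE from limma, and the differences of the 4 class II genes stay below 0 and that of CD86 above 0, nearest to 0 without tibial 2 at 0.14.

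The other class II chain genes were read beside the members. SLA-DRB1, the beta chain of DR, measured 3.21, 4.08 and 3.24 on the mandibular arrays and 4.84, 6.38 and 3.65 on the tibial arrays. SLA-DMA and SLA-DMB encode the DM editor that exchanges the invariant chain fragment for peptide. SLA-DMA measured 4.31, 5.13 and 4.61 against 6.14, 6.52 and 4.48, and SLA-DMB 5.46, 5.74 and 5.39 against 7.31, 7.33 and 5.32. SLA-DOA, the alpha chain of DO, stayed between 3.93 and 4.47 on 5 arrays and reached 5.31 on tibial 2. In the 4 chain genes that are not members the tibial mean was the higher one, as it was in 49.0% of all probe sets. The members had the same direction, but they were selected on it and are not counted. Tibial 3 was the lowest tibial array in all 8 chain genes, a count for which no share over all probe sets was computed. The site differences of the 4 chain genes that are not members were -1.45 (SE 0.66) for SLA-DRB1, -1.03 (SE 0.53) for SLA-DMA, -1.13 (SE 0.53) for SLA-DMB and -0.29 (SE 0.33) for SLA-DOA, and none passed the test.

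Of the 24 genes listed for class II presentation, 17 were measured, of which 13 are not members. Of these 13, 0 passed in either direction, 11 had the higher tibial mean, and the median difference was -0.29, against 0.00 over all probe sets. Proteases that prepare class II ligands differed among themselves. CTSS, the cathepsin that trims the invariant chain, measured 5.16, 6.96 and 4.50 on the mandibular arrays and 10.54, 8.99 and 5.19 on the tibial arrays. CTSL, a related cathepsin, measured 9.04 on tibial 1 and between 5.78 and 7.13 on the other 5 arrays. IFI30, a lysosomal thiol reductase, ranged from 7.93 on tibial 3 to 10.39 on tibial 1. LGMN, the asparagine endopeptidase legumain, was high on every array, between 12.13 and 13.08.

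Regulators that bind class II promoters had ranges of 1.03 or less. RFX5, the DNA-binding subunit of the RFX complex, measured 5.78, 6.76 and 6.19 on the mandibular arrays and 6.80, 6.36 and 6.39 on the tibial arrays. NFYA, NFYB and NFYC, subunits of the CCAAT-binding factor, and CREB1 had ranges of 0.23, 0.31, 0.47 and 0.13. CREB1 lay between 3.26 and 3.39, under the lower quartile on every array, so its range cannot be told from that of background. CIITA and the invariant chain gene CD74 are not analysed here, as no probe set was found under their symbol alone, and likewise RFXAP, RFXANK, CTSB, MARCHF1 and MARCHF8.

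**Figure D4:**
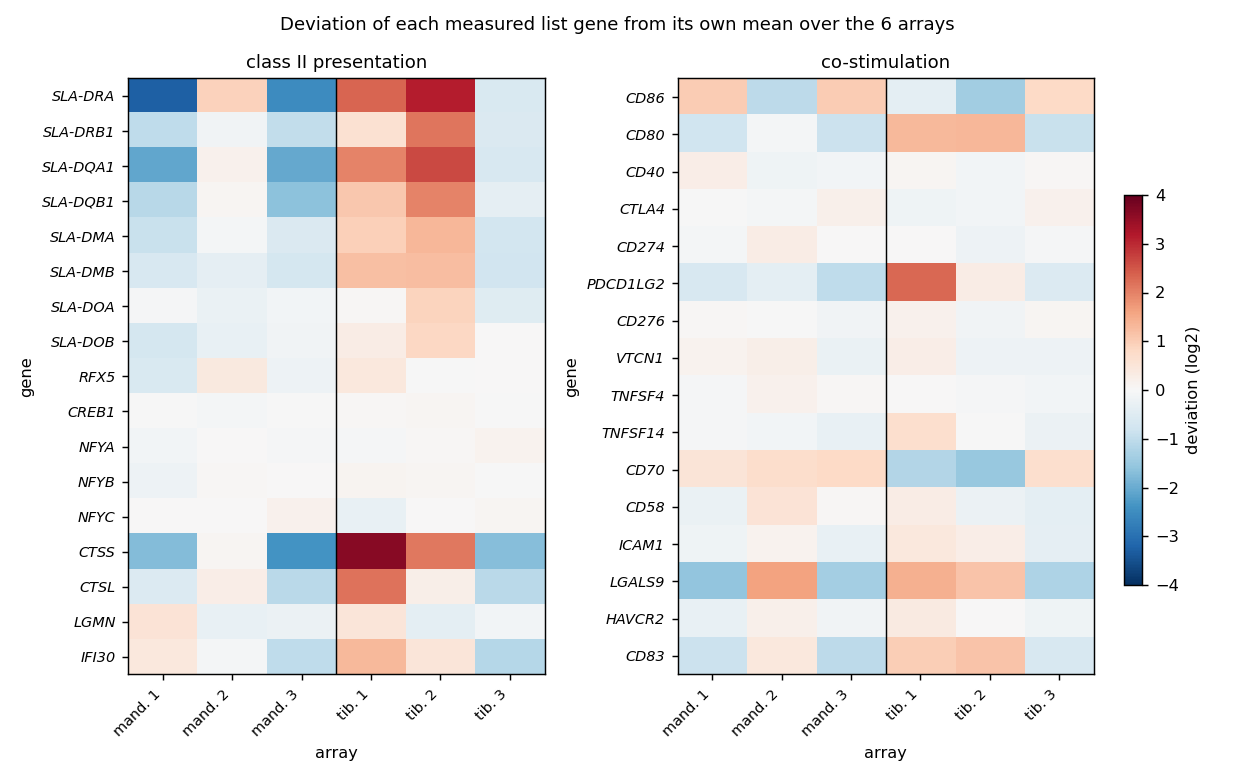
Deviation of each measured gene from its own mean over the 6 arrays (colour, log2) for the class II presentation and co-stimulation lists, with arrays in columns and a line between the sites. The chain genes and CTSS are highest on tibial 1 and tibial 2, and CD86 is lowest on tibial 2.

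The measured genes of other functions that lie among the class II genes had ranges of 1.58 or less, as had SLA-DOB (1.56) and SLA-DOA (1.38). RefSeq's annotation of Sscrofa11.1 places 25 genes from SLA-DRA to SLA-DOA, of which 12 were measured here under their symbol. Between SLA-DOB and SLA-DMB lie TAP2 and TAP1, the peptide transporter of class I loading, PSMB9, an immunoproteasome subunit, and BRD2, a chromatin reader. TAP2 ranged over 0.44 log2 units, BRD2 over 0.33, TAP1 over 1.11 and PSMB9 over 1.58. TAP1 was highest on mandibular 2, at 7.98, and PSMB9 was highest on tibial 1, at 6.16, and lowest on tibial 3, at 4.58. The annotation also holds 4 pseudogenes with SLA-D names in that stretch (SLA-DRB4, SLA-DRB5, SLA-DQB2 and SLA-DYB). Beta chain levels are uncertain to the extent that probes match these copies.

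The other co-stimulation genes with a range of 1 log2 unit or more (CD80, CD83, PDCD1LG2, LGALS9 and CD70) were ordered differently from CD86. Of 24 listed genes 15 besides CD86 were measured, 0 of them passed in either direction, and their median difference was -0.08. CD80, the close relative of CD86 that binds the same receptors, measured 3.41, 4.13 and 3.35 on the mandibular arrays and 5.51, 5.55 and 3.30 on the tibial arrays. It was thus highest on tibial 1 and tibial 2, where CD86 was low. On mandibular 2, where CD86 was also low, CD80 was only a little above the lower quartile. On mandibular 1, mandibular 3 and tibial 3 it lay under the lower quartile, where background cannot be told apart. CD83, a surface protein of maturing dendritic cells that stabilises class II, measured 6.35, 7.61 and 6.15 against 8.17, 8.35 and 6.55. PDCD1LG2, an inhibitory ligand of PD-1, reached 6.95 on tibial 1 and 4.93 on tibial 2 and lay between 3.64 and 4.27 elsewhere. LGALS9, a galectin, measured between 7.33 and 7.81 on mandibular 2, tibial 1 and tibial 2, and between 4.63 and 4.98 on the rest.

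CD70, a ligand of the TNF family, was low on tibial 1 and tibial 2, as CD86 was. It measured 7.62, 7.80 and 7.90 on the mandibular arrays and 5.94, 5.60 and 7.79 on the tibial arrays. Unlike CD86 it was not lower on mandibular 2. Its difference was 1.33 (SE 0.54), and it did not pass the test. CTLA4, a receptor of CD86, stayed between 2.48 and 2.85, under the lower quartile on every array, and CD40 stayed between 6.30 and 6.72.

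Interferon gamma genes did not follow the class II order. Of 20 listed genes 13 were measured, 0 passed, and the median difference was -0.04, a sign that turned without mandibular 3 (0.03) or tibial 1 (0.03). IFNG itself lay between 2.56 and 2.64 on all arrays, under the lower quartile. CXCL10, a chemokine induced by interferons, measured 6.41 on mandibular 2 and between 2.53 and 3.59 on the other 5 arrays. GBP1, a guanylate-binding protein induced by interferons and chosen for naming after its values were seen, was also highest on mandibular 2, at 6.47, with 5.66 or less elsewhere. CXCL9, CXCL11, JAK1 and GBP2 differed by 0.25, 0.29, -0.20 and -0.13 between sites. CXCL10 and GBP1 were thus highest on mandibular 2. On tibial 2, with the highest class II levels, GBP1 was 5.66 and CXCL10 was 3.59, under the lower quartile and not to be told from background. The part of interferon in the class II levels was not tested on any array.

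The macrophage and pan-leukocyte lists, like the class II mean, stood highest on tibial 1 and tibial 2. On tibial 3 their mean deviations from their own means were -0.80 and -1.24, against -0.40 for the class II mean. Of 20 listed macrophage and monocyte genes 16 were measured. The tibial mean was higher in 16 of them, and in 49.0% of all probe sets. These macrophage and monocyte genes had a median difference of -2.03, with 0 past the test. Their mean level ran from 4.86 to 6.04 over the mandibular and from 5.35 to 8.17 over the tibial arrays. C1QA, C1QB and C1QC, the chains of complement C1q made by macrophages, were at 8.59, 8.45 and 8.47 on mandibular 2, 10.62, 10.87 and 10.81 on tibial 1, and 7.33, 7.04 and 6.99 on tibial 3. On mandibular 1 and 3 they lay between 5.26 and 6.74. Of the 5 measured pan-leukocyte genes, LCP1 and CD53 had levels of 10.75 and 9.11 on tibial 1 and 9.04 and 7.74 on tibial 2. ARHGDIB was instead highest on mandibular 2, at 8.95. PTPRC, the leukocyte antigen CD45, measured 3.42, 4.86 and 3.71 on the mandibular and 7.66, 6.96 and 3.91 on the tibial arrays. In such cultures fewer cells of a type and less RNA per cell cannot be told apart, and the part of leukocytes in the class II levels was not tested.

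The order of tibial 1 and tibial 2 differed between the class II chains and most genes of the macrophage list. Tibial 2 was above tibial 1 for 8 of 8 chain genes, by 0.81 for SLA-DRA and by 0.02 for SLA-DMB. It was above tibial 1 for 2 of 16 measured genes of the macrophage list, MARCO and LYZ, and for 47.5% of all probe sets. The order was not particular to the chains. MPEG1, a macrophage gene that is not on the list, measured 10.23 on tibial 1 and 10.38 on tibial 2. CD80 and CD83 were also slightly higher on tibial 2. SPI1, the myeloid transcription factor, measured 9.11 on tibial 1 and 8.11 on tibial 2, and CTSS had the same order. The same 2 arrays had CD86 at 8.44 and 7.44. CD86 was highest, at 9.87 and 9.85, on mandibular 3 and mandibular 1, where the macrophage list had its lowest means, 4.89 and 4.86.

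Markers of other antigen-presenting cells and of lymphocytes had narrower ranges of list means than macrophage markers. Of the dendritic cell list 7 of 14 genes were measured, with list means between 5.67 and 5.88 on all arrays. FSCN1 and TCF4, which stromal cells also express, were high throughout, and CCR7 lay between 4.98 and 5.52. The B cell list (8 of 14 measured) had means from 5.01 to 5.20 on mandibular and from 5.16 to 5.82 on tibial arrays. All 8 had the higher tibial mean, as had 49.0% of all probe sets, with a median difference of -0.22 over the 8. CD79A and CD79B, the signalling chains of the B cell receptor, stayed between 4.56 and 5.10, VPREB1 between 4.96 and 5.34 and CD72 between 4.96 and 5.88. EBF1, also a stromal gene, ranged from 8.35 to 9.84. BANK1 measured 6.71 and 6.24 on tibial 1 and 2 and 4.50 or less elsewhere.

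For T and NK cells 16 of 19 genes were measured, with list means from 4.44 to 4.82. CD3D, CD3E and CD3G, chains of the T cell receptor complex, lay between 2.59 and 5.17, CD8B between 5.67 and 5.93, and NCR1 between 7.52 and 8.25. NKG7 was the exception in this list, with 9.84 on tibial 1 and 8.40 on tibial 2 against 6.28 or less elsewhere. Endothelial genes (8 of 11 measured) had list means from 4.997 to 5.43, with EGFL7 between 6.52 and 7.36, PECAM1 between 5.58 and 6.36 and CLDN5 between 5.15 and 5.79. The stromal list (12 of 14 measured) had means from 11.43 to 11.71. No gene of the dendritic cell, B cell, T and NK cell, endothelial, stromal or pan-leukocyte lists passed the test.

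**Figure D5:**
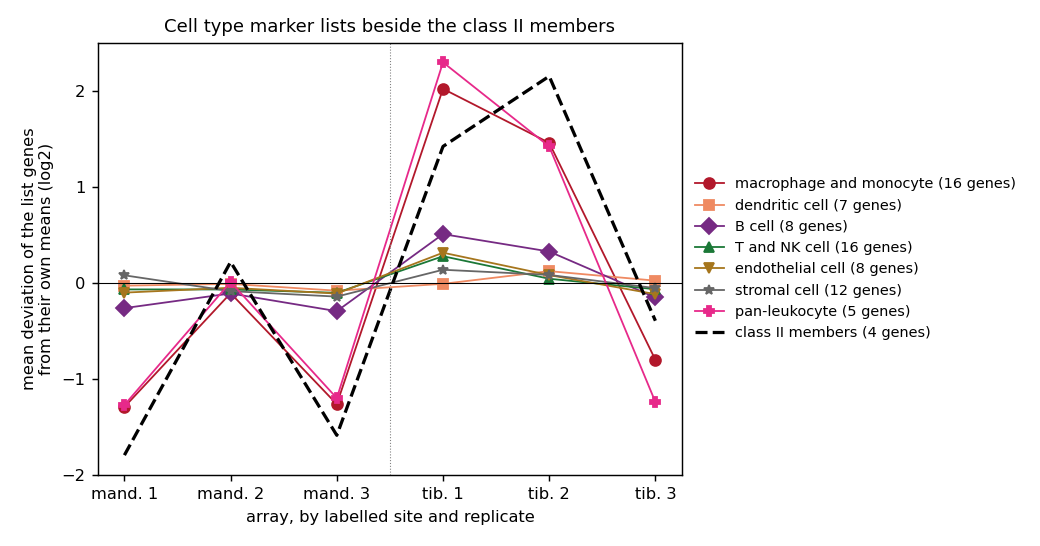
Mean deviation of the genes of each marker list from their own means (log2, vertical axis) on each array, with the mean of the 4 class II genes dashed. The macrophage and pan-leukocyte lists are highest on tibial 1, at 2.02 and 2.30, while the class II mean is highest on tibial 2, at 2.15.

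Genes most alike to the class II mean were sought among the 1618 named genes whose arrays spanned 1 log2 unit or more. The 8 with the highest Pearson r over the 6 arrays, 0.97 to 0.99, were ALOX5AP, TMEM144, JAML, MPEG1, SMPDL3A, C1QC, CCL4 and C1QB. ALOX5AP, which activates leukotriene synthesis, measured 6.15, 6.86 and 6.01 on the mandibular and 7.43, 7.75 and 6.44 on the tibial arrays. MPEG1, a pore-forming protein of macrophages, had a wide range, from 4.58 on mandibular 1 to 10.38 on tibial 2. In all, 98 of the 1618 genes, 6.06%, had r of at least 0.9 with the class II mean. Among them were SLA-DRB1 at 0.94, SLA-DMA at 0.95 and PTPRC at 0.93.

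For CD86 the 8 most alike genes, with r from 0.97 to 0.99, were FLRT2, NFIB, ADGRG6, PDE7B, TMEM117, ADCY3, SYT11 and SQLE. FLRT2, a membrane protein of cell adhesion and guidance, measured 8.50, 7.31 and 8.65 on the mandibular and 7.68, 7.30 and 8.52 on the tibial arrays. NFIB, a transcription factor, measured 9.22, 7.70 and 9.04 against 8.15, 7.53 and 8.67. None of these 8 is on a marker list used here. Of the 1618 genes, 33 had r of at least 0.9 with CD86, 2.04%, and 78 had r of -0.9 or below, 4.82%. ALX1, a homeobox gene of craniofacial mesenchyme chosen after its values were seen, was among them at 0.96, with 8.08, 3.86 and 7.44 on the mandibular and 3.90, 3.54 and 7.97 on the tibial arrays.

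The genes most opposite to CD86 were taken by the mirror of the same rule, added after the data were seen. They included COMP, a cartilage matrix protein, at r of -0.996, and the trunk and limb genes HOXA5 and HOXA9 at -0.99 and -0.98. HOXA9 measured 4.41, 6.97 and 4.35 on the mandibular and 6.67, 7.37 and 5.10 on the tibial arrays, and was thus low on the arrays where CD86 was high. These are likenesses over 6 arrays out of 1618 genes searched, given without a test.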

How the data were processed

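The authors deposited log2 levels for 27558 probe sets on 6 arrays. The submitters' processing notes name RMA together with the Affymetrix programs Expression Console and Transcriptome Analysis Console 3.0. RMA brings array distributions close to one another, so levels are relative within an array. For settings and genome build, the sources used here give nothing. GEO's platform annotation left 13878 probe sets without a symbol, put several on 523 and a single one on 13157, and 7 symbols were updated by Entrez number. With placeholders set aside, 10874 genes were named, each by its probe set with the highest mean.

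Differences are mandibular minus tibial from limma 3.58.1 in R 4.3.3 (lmFit, eBayes), over all 27558 probe sets, unpaired, two-sided, with Benjamini-Hochberg adjustment and a threshold of 0.05. The working of the fit was checked on simulated independent normal values with large planted shifts. That check does not bear on shared pigs or doubtful site labels. The labels call the replicates biological without tying them to animals, so SEs and p-values measure the spread between these samples. The members, lists and rules for naming genes were chosen with earlier results of these data known. Named were the members, measured class II list genes, up to 5 genes by largest difference in each other pathway list, up to 3 by highest mean in each marker list, and the 8 most alike genes. SPI1, PTPRC, LYZ, MARCO, BANK1, HOXA7, CTLA4, CD40, IFNG, CD79A, CD79B, CD3D, CD3E, CD3G, TAP1, TAP2, PSMB9, BRD2 and B2M were named outside this rule after their values were seen. Alternatives left out arrays, blocked on replicate number, centred arrays on medians, used array weights, trend and robust fitting, a filter at a mean of 5, or the mean of a gene's probe sets. With 3 arrays a site, precision is limited by their number.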

Additional observations from a re-analysis of the deposited data

How the results depend on the processing

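With each array left out in turn, the site difference ranged from -4.52 to -2.41 for SLA-DRA, -3.64 to -1.99 for SLA-DQA1, -2.42 to -1.26 for SLA-DQB1, -0.96 to -0.55 for SLA-DOB and 0.14 to 1.36 for CD86. List medians, members included, ranged from -1.12 to -0.34 for class II presentation, -0.00931 to 0.19 for class I presentation, -0.10 to 0.00 for co-stimulation and -0.14 to 0.03265 for interferon gamma genes; the class I sign turned without tibial 3, and that of interferon gamma genes without mandibular 3 (0.03) or tibial 1. Calls ranged from 0 to 2 probe sets, with 1 without tibial 1 and 2 without tibial 3. Without mandibular 2 and tibial 3 together, chosen after the data were seen, there were 195 calls, differences of -5.62 (SLA-DRA), -4.38 (SLA-DQA1), -2.91 (SLA-DQB1) and 1.92 (CD86), and medians of -0.16 (class I) and -0.23 (interferon gamma). The cause was not tested. The replicate block in limma left the count at 0 and put 1511 probe sets under an unadjusted p of 0.05, against 836 without it. Deviations of same-numbered arrays correlated at -0.03, 0.21 and 0.47, and those of differently numbered arrays between -0.49 and 0.36. These values do not decide whether equal numbers mean the same pig, the more so with mandibular 2 and tibial 3 in doubt. As no label ties a number to a pig, the main fit was left unpaired. In this balanced design the block leaves each mean difference as it is. It changed the SE of SLA-DRA from 1.34 to 0.78, of SLA-DQA1 from 0.98 to 0.52 and of SLA-DQB1 from 0.67 to 0.20. That of SLA-DOB went from 0.25 to 0.23 and that of CD86 from 0.73 to 0.27. The filter at a mean of 5 left SLA-DOB out. Low signal limits SLA-DOB most.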

Other observations

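Class I presentation genes serve the display of peptides from the cytosol to CD8 T cells. Of 24 listed genes 18 were measured, 0 passed in either direction in limma, and 4 spanned 1 log2 unit or more over the arrays, as did 14.9% of all named genes. Their median site difference was 0.10, with 6 of 18 higher in tibial cultures, and it turned to -0.01 without tibial 3. B2M, the shared light chain, measured 10.84, 11.42 and 10.65 on the mandibular arrays and 11.54, 10.90 and 10.54 on the tibial arrays. The heavy chain gene SLA-3 measured 8.31, 8.74 and 8.29 against 8.75, 8.20 and 7.07, with its lowest level on tibial 3. SLA-7 measured 5.46, 5.80 and 5.53 against 5.24, 5.34 and 5.29. It was the 1 gene of the 18 with no overlap between sites, as were 6.92% of all probe sets, so nothing is read from it. SLA-5 differed by -0.30 (SE 0.25). ERAP1 and ERAP2, aminopeptidases that trim class I peptides, differed by 0.53 (SE 0.38) and 0.48 (SE 0.22).

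A probe set annotated to both SLA-1 and a second locus measured 8.12, 7.83 and 7.45 on the mandibular arrays and 8.51, 6.34 and 6.33 on the tibial arrays. One annotated to both SLA-2 and SLA-1 stayed between 7.03 and 8.29. As each carries several symbols, neither was counted for a gene.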
